A study of Mus musculus with 8 samples.

Results

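Rhoa, Rhob and Rhoc, the genes of the 3 closely related small GTPases RhoA, RhoB and RhoC, were followed through 8 RNA sequencing libraries of mouse muscle stem cells. They were chosen by name and are 3 of the 57180 genes in the deposited tables. All 3 were among the 15660 genes that passed the filter on low counts. The study used cells taken directly from muscle and sorted by flow cytometry, and its stated purpose was to find the expression and splicing effects of lower RhoA activity. The 4 control libraries carry the genotype label WT (replicates 2, 5, 7 and 8). The other 4 are titled RhoA het, carry the genotype label RhoA knockdown and belong to mice that the series text writes as SC-RhoAfl/+ (replicates 5, 6, 7 and 8). The driver of recombination, the floxed exons, and the age and sex of the mice are not given in the sources used here. Since nothing states that the libraries of a group came from separate mice, p-values measure the spread between these libraries.

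These small GTPases are switches that bind GTP when active and GDP when inactive. Exchange factors (GEFs) turn them on, GTPase activating proteins (GAPs) turn them off, and dissociation inhibitors hold them in the cytosol. RhoA and RhoC sit mainly at the plasma membrane and in the cytosol and drive actin stress fibres and myosin contraction through the ROCK kinases and the formin mDia1, encoded by Diaph1. RhoB differs in being found also on endosomes and in being a short-lived product of an early-response gene. In many tissues loss of 1 of them is accompanied by a higher level or activity of a paralogue, so the question here was whether Rhob or Rhoc mRNA differed where Rhoa mRNA was lower.

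The 3 proteins are most alike in the GTP-binding body and least alike in the short tail that precedes the prenylation box, the site where a lipid is attached. The same held for the coding sequences, taken from the longest protein-coding transcript of each gene in GENCODE M21. The last 63 bases of each are shown because they are the stretch in which the paralogues differ most, and the 15 capitals mark the codons of the prenylation box and the stop codon:
Rhoa: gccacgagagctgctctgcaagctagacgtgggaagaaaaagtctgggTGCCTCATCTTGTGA
Rhob: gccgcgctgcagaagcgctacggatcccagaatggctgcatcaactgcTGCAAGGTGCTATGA
Rhoc: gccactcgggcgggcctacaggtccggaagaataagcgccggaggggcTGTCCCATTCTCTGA
In this stretch 49.2% of aligned bases were identical between Rhoa and Rhoc, 55.9% between Rhoa and Rhob, and 55.7% between Rhob and Rhoc. In the coding sequence before it, identity was 80.5%, 73.6% and 78.8%. Whether sequenced fragments can be assigned to the right paralogue depends on such differences. The longest identical run between any pair of the 3 whole transcripts was 24 bases (Rhob and Rhoc), and it was 20 bases for Rhoa and Rhob and 17 for Rhoa and Rhoc. No pair of these transcripts shared a stretch of 50 bases, so fragments of that length or more differ between them.

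Rhoa (ENSMUSG00000007815.14) lies on mm39 chromosome 9, 108183328 to 108215133, plus strand, and its exons in the counting annotation add up to 7494 bases. Rhob (ENSMUSG00000054364.6) is a gene of 1 exon of 2349 bases on chromosome 12, 8547661 to 8550009, minus strand. Rhoc (ENSMUSG00000002233.14) lies on chromosome 3, 104695691 to 104701775, plus strand, with 1618 exonic bases. Of the exonic bases of Rhoa, 4.32% (324 bases) are shared with Gm37401 and 0.43% (32 bases) with Tcta, both on the opposite strand. Fragments that overlap both genes are not counted, and Gm37401 itself had at most 3 fragments in any library. Exons of Rhob and Rhoc overlap no other annotated gene.

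Library totals ran from 19138763 to 25606342 assigned fragments. Where values of single libraries follow, they stand in the order of replicates 2, 5, 7, 8 for control and 5, 6, 7, 8 for RhoA het. Each member had 2324 to 7273 fragments per library, and counting error alone was 1.17% to 2.07% of a value. The stem cell label was checked against 10 marker genes, all detected in each library. Pax7, the defining transcription factor of these cells, ranged from 112 to 176 CPM over the control libraries and from 78.5 to 106 over the RhoA het libraries (CPM, fragments relative to the TMM-scaled library size). The 10 markers summed to 9960 to 16146 and 8561 to 16286 CPM. RhoA het replicate 6 stood apart in endothelial markers, whose 10 genes summed to 692 CPM there and to 74.3 to 170 CPM in the other 7 libraries (10 of 10 detected, none at 0 in any library). Mural markers summed to 366 to 601 CPM in control libraries, and in RhoA het to 1111 in replicate 6, 1410 in replicate 8 and at most 393 otherwise. Fibro-adipogenic markers summed to 2430 to 10518 and 4251 to 8754 CPM. Myofibre markers summed to 71.6 to 469 CPM in control libraries and 44.3 to 435 CPM in RhoA het libraries, with 2 of 10 at 0 in some library. Immune markers reached at most 14.5 CPM, and 4 of 7 were at 0 in some library. Erythroid markers summed to 143 CPM in control replicate 7 and 319 CPM in RhoA het replicate 6, against 1.86 to 25.4 CPM in the other libraries. The part of erythroid RNA in the values of the members was not tested.

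Per unit of the exon length used by the authors, Rhoc was the most abundant of the 3 and Rhoa the least. Rhoc averaged 236.8 ± 24.4 TPM in control and 262.6 ± 34.3 TPM in RhoA het (SD, n = 4 each; TPM, fragments per exon length scaled to a common total). Rhob averaged 183.3 ± 45.3 and 214.0 ± 29.5 TPM, and Rhoa 134.2 ± 10.9 and 116.5 ± 6.23 TPM. Rhob was above Rhoa in 8 of 8 libraries and Rhoc above Rhob in 7 of 8, the exception being RhoA het replicate 7. In control the means of Rhoc and Rhob differed by little more than the larger of their SDs. These levels placed Rhoc 636th, Rhob 785th and Rhoa 1230th among the 15660 genes tested, so that 92.1% to 95.9% of those genes lay below a member.

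**Figure D1:**
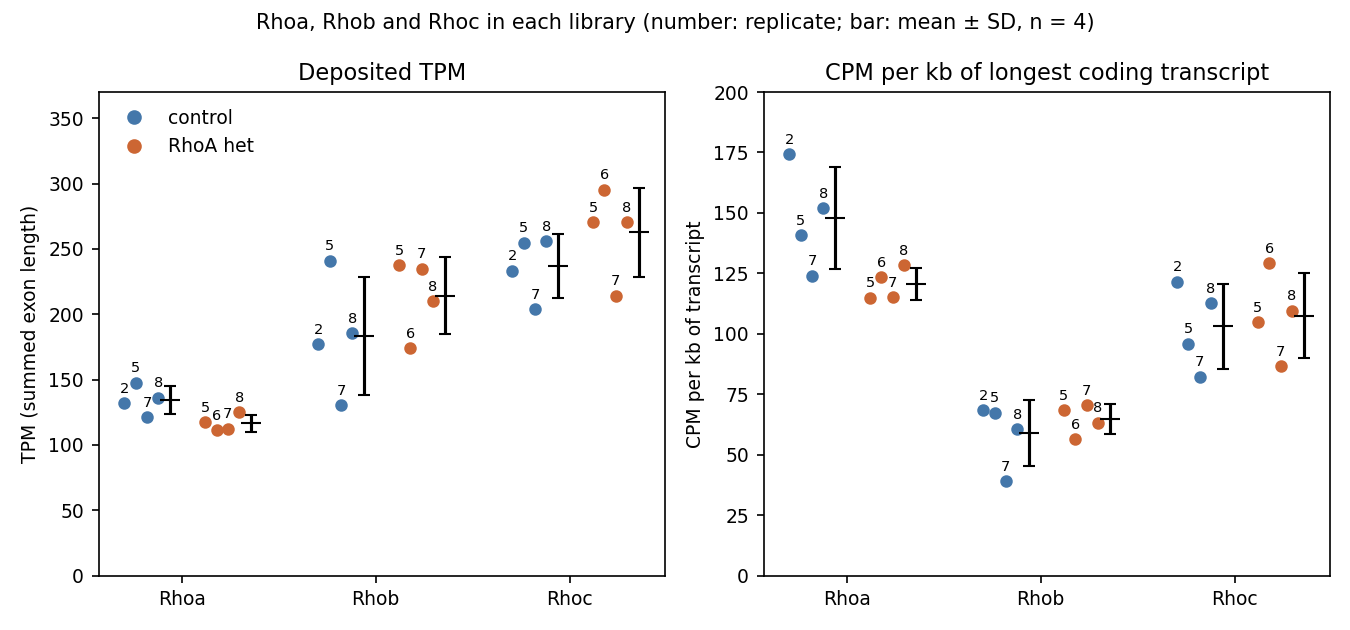
Level of Rhoa, Rhob and Rhoc in each library, as deposited TPM (left) and as CPM per kb of the longest protein-coding transcript (right). Points are libraries labelled by replicate (blue, control; orange, RhoA het) and bars the mean ± SD of 4 libraries. Rhoa is lowest of the 3 on the left and, in 7 of 8 libraries, highest on the right.

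This order depended on the length that stands for Rhoa. The 7494 bases counted for Rhoa include retained introns, for which GENCODE M21 lists a transcript of 5101 bases (Rhoa-204), whereas the longest protein-coding transcript (Rhoa-201) has 2197 bases. The corresponding transcripts have 2349 bases for Rhob, the whole exon, and 1202 bases for Rhoc. Divided by these lengths, an alternative chosen after seeing the data, Rhoa was at 147.7 ± 21.1 CPM per kb in control, Rhoc at 103.1 ± 17.5 and Rhob at 58.9 ± 13.6. In RhoA het the same levels were 120.5 ± 6.58, 107.6 ± 17.5 and 64.7 ± 6.21 CPM per kb. Rhoa then exceeded Rhob in 8 of 8 libraries and Rhoc in 7 of 8. Only RhoA het replicate 6 had more Rhoc, 129.3 against 123.5 CPM per kb. Which transcripts the fragments came from cannot be read from counts per gene, so the rank of Rhoa within the 3 genes is not settled by these tables. The comparison of groups for a single gene does not use the length.

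Rhoa encodes the targeted GTPase, and its mRNA was lower in RhoA het without passing the adjusted threshold. Deposited TPM was 132, 148, 121 and 136 over the control libraries, against 117, 111, 112 and 125 over the RhoA het libraries. The groups overlapped in 1 place only, since control replicate 7 lay below RhoA het replicate 8. In CPM, control libraries ranged from 273 to 383 and RhoA het libraries from 253 to 282. The fitted difference of RhoA het from control was -18.4% (95% interval -33.4% to -0.0555%; log2 fold change -0.29, SE 0.13). The unadjusted p of the edgeR quasi-likelihood test was 0.0495, and after adjustment over all 15660 genes it was 1.00. The interval excludes 0 narrowly: under 15 of 18 alternatives the unadjusted p was over 0.05, and over the 18 it ran from 0.0179 (edgeR without control replicate 7) to 0.136 (limma on log2(TPM + 0.1)). Of all genes tested, 0.0% passed an adjusted p under 0.05 in edgeR, and DESeq2 called 0 too. At an unadjusted p under 0.05, 372 of 15660 genes (2.38%) differed in edgeR and 507 of 32274 (1.57%) in DESeq2, which was run without the filter, and in edgeR 0.696% of genes were lower in RhoA het. With the replicate block, 0.0127% of genes passed the adjusted threshold. None of the 3 members had groups without overlap in CPM, against 1.81% of genes (0.792% lower and 1.02% higher in RhoA het). A log2 fold change of this size or more in either direction was seen in 23.5% of genes. Within the pairs of libraries that share a replicate number, the difference in Rhoa CPM was -18.3% for number 5, -7.1% for number 7 and -15.4% for number 8. Of the 10 stem cell markers, Pax7 had a lower level in every RhoA het library than in any control library. The other 9 overlapped between the groups. Their means were lower in RhoA het for Chodl (844 CPM in control, 639 in RhoA het), Des, Cdh15, Calcr and Sdc4. They were higher for Myf5 (461 and 541 CPM), Itga7, Vcam1 and Spry1. The median of the summed level was 10525 CPM in control against 10751 in RhoA het. That sum is led by Sdc4 and Vcam1 (means of 5575 and 2790 CPM in control), so it says little on the other markers. The part of these markers in the Rhoa value was not tested. The count sums every exon, so transcripts of a recombined allele that keep other exons would still be counted. In these bulk libraries fewer cells of a type and less RNA per cell cannot be told apart.

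Rhob, the early-response member, varied most among control libraries. Its TPM was 177, 241, 130 and 185 over the control libraries, against 238, 174, 235 and 210 over the RhoA het libraries. The groups overlapped over most of their range, with control replicate 5 highest of all and control replicate 7 lowest of all. In CPM, control replicate 7 was at 91.8 and the other control libraries at 143 to 161, while RhoA het libraries were at 133 to 166. The coefficient of variation of Rhob CPM was 23.2% in control and 9.60% in RhoA het. The fitted difference was 9.81% in RhoA het, with a 95% interval from -17.0% to 45.2% (log2 fold change 0.13, SE 0.18; edgeR unadjusted p 0.471, adjusted p 1.00). Without control replicate 7 the log2 fold change was -0.020. Within number pairs, RhoA het CPM was 1.49% higher for number 5, 4.21% higher for number 8 and 80.4% higher for number 7, the pair that holds this control library.

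As Rhob is known as an early-response gene, 20 genes of the response to dissociation (Fos, Jun, Egr1, Atf3 and others; Rhob left out) were read beside it. They were detected in every library, and their sum ran from 26895 to 55569 CPM in control and from 24777 to 50821 CPM in RhoA het. Control replicate 7, lowest in Rhob, had the second highest sum in its group (53177 CPM), and control replicate 5, with 158 CPM of Rhob, the lowest (26895 CPM). Control replicate 2 had both the highest sum (55569 CPM) and the highest Rhob CPM (161) of its group. The part of these 20 genes in the Rhob values was not tested. The 250 bases upstream of the Rhob start are shown because, of the 4 start windows that RefSeq gives for the 3 genes, this alone holds the CCAAT letters (CCAAT or its complement ATTGG, in capitals), at 115 to 111 and 66 to 62 bases before the start:
Rhob, GRCm38.p6 chr12:8500010-8500259, minus strand: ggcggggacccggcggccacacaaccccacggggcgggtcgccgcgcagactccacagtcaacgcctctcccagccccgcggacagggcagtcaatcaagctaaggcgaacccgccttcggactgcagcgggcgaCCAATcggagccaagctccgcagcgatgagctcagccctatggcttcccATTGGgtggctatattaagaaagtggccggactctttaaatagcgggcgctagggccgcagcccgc
CCAAT in either orientation was found in 33.8% of the 32851 RefSeq windows of that length. The CArG box of SRF (1.47% of windows), the AP-1 motif TGANTCA (6.75%), the CRE TGACGTCA (1.55%) and CAGCTG (13.0%) were in none of the 4 windows. These are matches of letters, and no binding was measured.

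Rhoc, the member closest to RhoA in sequence, showed no difference beyond the spread of the libraries. Its TPM was 233, 255, 204 and 256 over the control libraries, against 271, 295, 214 and 270 over the RhoA het libraries. Replicate 7 was the lowest library of both groups, and RhoA het replicate 6 the highest of all. Within number pairs 5, 7 and 8, RhoA het differed from control by 9.27%, 5.46% and -2.74% in Rhoc CPM. In TPM the same differences were 6.23%, 5.24% and 5.74%. The fitted difference was 4.38% in RhoA het, with a 95% interval from -19.1% to 34.7% (log2 fold change 0.06, SE 0.16; edgeR unadjusted p 0.714, adjusted p 1.00). Without RhoA het replicate 6, the library high in endothelial markers, the log2 fold change was -0.040. Without control replicate 7 it was -0.034. The part of endothelial RNA in the Rhoc value was not tested.

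**Figure D2:**
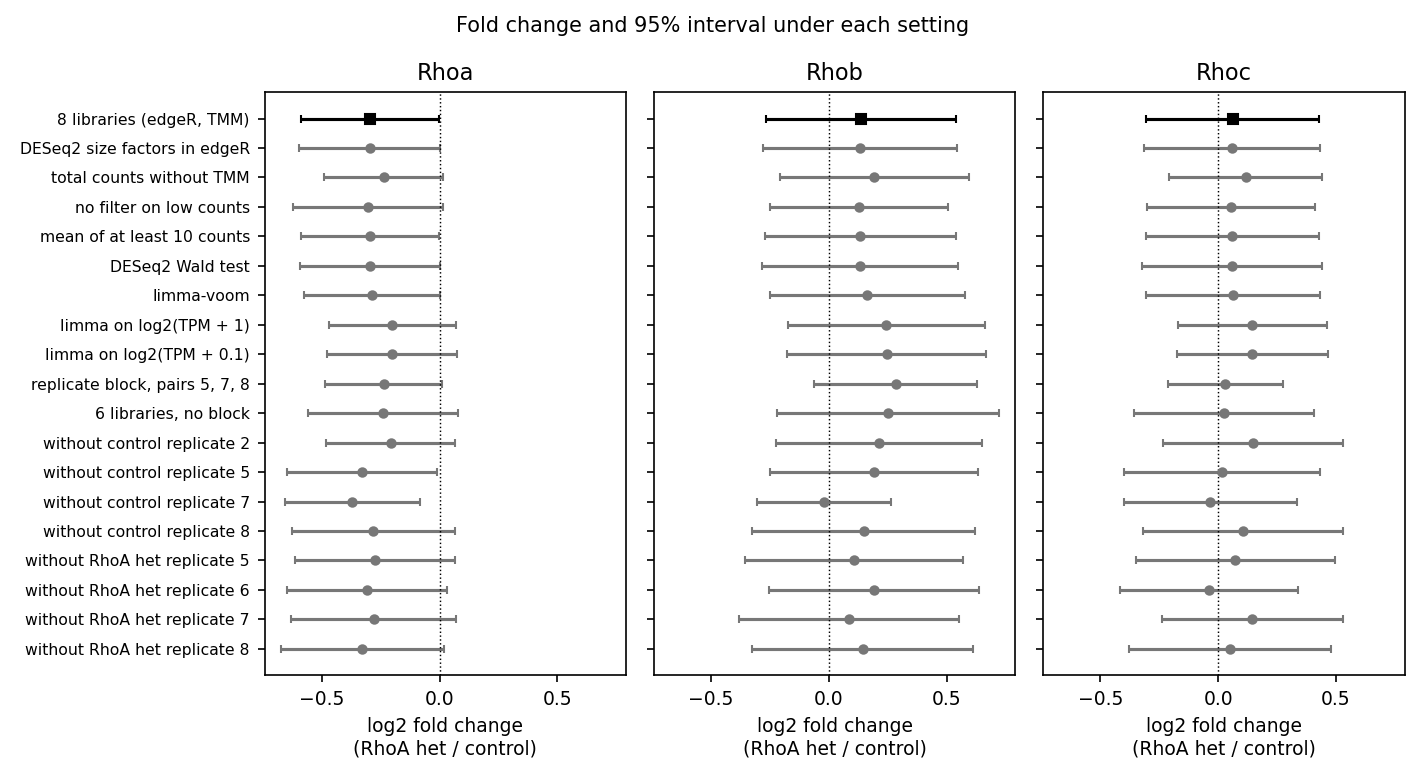
Log2 fold change of RhoA het against control (x axis) with its 95% interval for Rhoa, Rhob and Rhoc under each setting (rows; the black square is the fit over 8 libraries, grey circles the alternatives). Every Rhoa estimate lies below 0, between -0.37 and -0.20, whereas Rhob is at -0.020 and Rhoc at -0.034 without control replicate 7, and Rhoc at -0.040 without RhoA het replicate 6.

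Counted as a share of the 3 genes together, Rhoa separated the groups. By TPM its share was 24.3%, 22.95%, 26.6% and 23.6% over the control libraries, against 18.7%, 19.2%, 20.0% and 20.7% over the RhoA het libraries. Every control library lay above every RhoA het library. The mean went from 24.4 ± 1.62% to 19.65 ± 0.858% (SD, n = 4 each), a difference of -4.73 percentage points. The scaling of libraries cancels in this share. By transcript length the share was 47.9 ± 1.92% in control and 41.2 ± 1.48% in RhoA het, again with no overlap (46.3% to 50.6% against 39.9% to 42.6%), and by fragments alone it was 55.5 ± 2.45% and 48.5 ± 1.35%. Shares of other gene sets were not computed, so this is not read as particular to the 3 genes. The shares of Rhob (32.7 ± 3.62% and 36.1 ± 5.03% by TPM) and Rhoc (42.9 ± 2.32% and 44.2 ± 5.23%) overlapped between the groups. Since the 3 shares add up to the whole, they carry no evidence on a paralogue of their own.

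**Figure D3:**
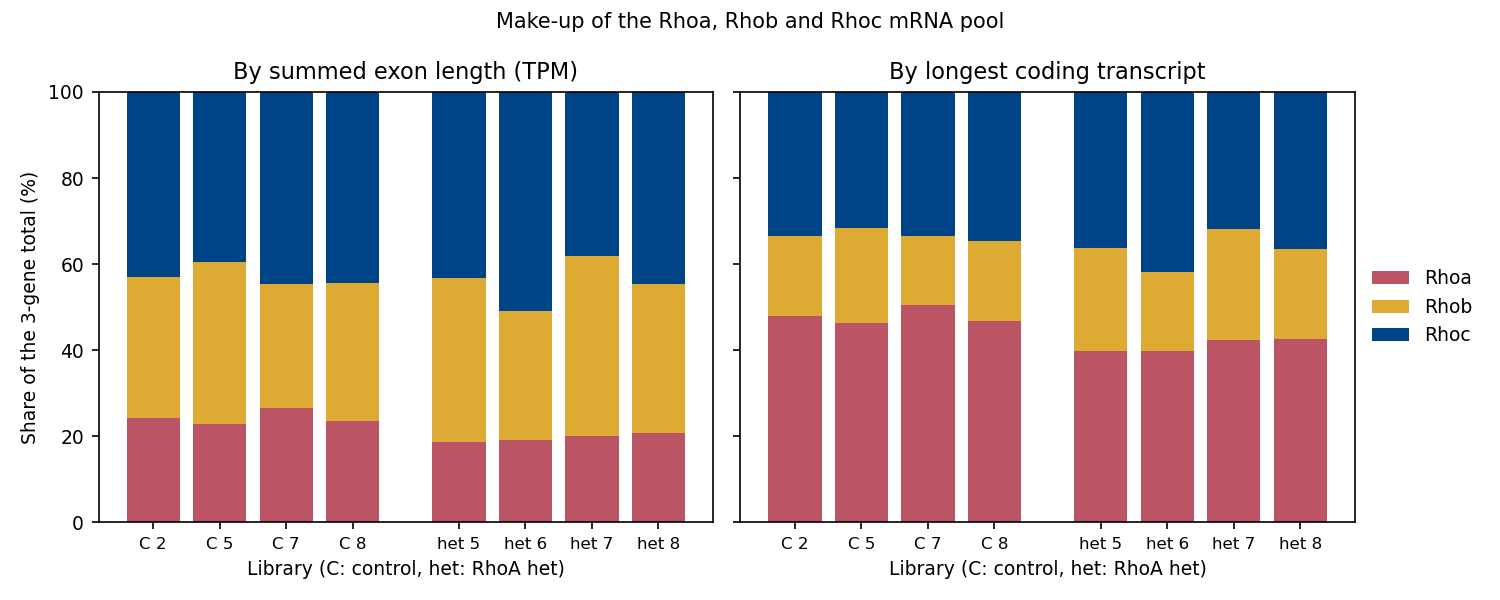
Share of Rhoa (red), Rhob (yellow) and Rhoc (blue) in the 3-gene total of each library, in percent, by summed exon length (left) and by longest protein-coding transcript (right). The red segment is 22.95% to 26.6% in control (C) and 18.7% to 20.7% in RhoA het (het) on the left, and 46.3% to 50.6% against 39.9% to 42.6% on the right.

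Ratios within a library put the paralogues directly against Rhoa. The TPM ratio of Rhoc to Rhoa was 1.68 to 1.88 in control and 1.91 to 2.65 in RhoA het, without overlap. The ratio changed by 0.35 on the log2 scale, or 1.27-fold (two-sided exact permutation p 0.0286, the smallest that 70 assignments allow, and 0.0571 adjusted over the 2 ratios, which share Rhoa). RhoA het replicate 6 had the highest ratio, and without it the change was 0.27. The ratio of Rhob to Rhoa was 1.07 to 1.63 in control and 1.56 to 2.09 in RhoA het, a change of 0.45 on the log2 scale or 1.36-fold (exact permutation p 0.0571, adjusted 0.0571). These ratios were read against the same ratio for all other genes. It was higher in RhoA het without overlap for 6.03% of genes tested and lower without overlap for 0.0511%. Among 7923 genes with a mean of at least 10 CPM, the first share was 7.86%, and the median gene's ratio changed by 0.27 on the log2 scale, 1.21-fold. The change was larger than that of the median gene by 0.18 for Rhob and 0.08 for Rhoc on the log2 scale, less than the SD of the Rhob ratio in either group (0.25 and 0.20) and close to the smaller SD of the Rhoc ratio (0.07 and 0.20). The difference from the median gene was not tested.

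The sum of the 3 genes differed between groups by less than the SD of the control libraries, and the sign of the difference depended on the scale. Summed TPM was 542, 643, 455 and 577 over the control libraries, against 625, 580, 561 and 605 over the RhoA het libraries. The RhoA het libraries lay inside the control range. The means were 554.4 ± 78.2 and 593.2 ± 28.0 TPM, 7.00% higher in RhoA het, a difference of 38.8 TPM that exceeds the SD of the RhoA het libraries alone. With TMM scaling and the same exon lengths, a setting added after seeing the data, the sum was 178.8 ± 30.9 and 179.9 ± 8.38 CPM per kb, 0.635% higher. By longest coding transcript it was 309.7 ± 49.7 and 292.7 ± 16.1 CPM per kb, a difference of -5.47%. In CPM without any length it was 586.8 ± 94.1 and 545.9 ± 18.5, a difference of -6.96%. Rhoa takes 24.4% of the control sum on the first scale and 55.5% on the last, which sets how far its lower level counts. Rhob and Rhoc together were at 262.2 ± 49.997 CPM in control against 281.2 ± 8.30 CPM in RhoA het, a difference of 19.0 CPM, beside one of -59.8 CPM for Rhoa. On TPM the same differences were 56.5 and -17.7, on a scale where the median of all tested genes was itself 0.07 higher in log2(TPM + 1). A higher paralogue level in RhoA het was therefore not detectable beyond the spread. The intervals of the main fit do not exclude one of up to 45.2% for Rhob or 34.7% for Rhoc. Other settings reached upper limits of 65.0% for Rhob (the 6 paired libraries without the block) and 44.4% for Rhoc (without control replicate 2).

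Across the 8 libraries the members did not rank in opposite order. Pearson's r of log2 CPM was 0.17 for Rhoa and Rhob (exact permutation p 0.696), 0.44 for Rhoa and Rhoc (p 0.266, exact) and 0.34 for Rhob and Rhoc (p 0.440, exact). Spearman's rank correlation was -0.07, 0.36 and -0.07 (exact permutation p 0.882, 0.389 and 0.882). Adjusted over the 3 pairs, every p of Pearson's r was at least 0.659 and every p of Spearman's rank correlation was 0.882 (exact permutation). Without the 2 libraries farthest from the median of the first gene, r was -0.06, 0.06 and -0.49, so the positive values rest on those libraries. The labels name no batch, and each shared replicate number holds 2 libraries, too few for a correlation within a number. With group means subtracted, r was 0.62, 0.81 and 0.32, as a description.

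The genes most like each member over the 8 libraries were found among 7921 genes with a mean of at least 10 CPM, by Pearson's r of log2 CPM. For Rhoa they were Hadh, an enzyme of fatty acid oxidation (r 0.98), Ltbr, the lymphotoxin beta receptor (r 0.97), and Tut1, a terminal uridylyltransferase (r 0.96). For Rhob they were Phf2, a histone demethylase (r 0.96), Gng12, a G protein gamma subunit (r 0.95), and Nploc4, a cofactor of the unfolding ATPase p97 (r 0.95). For Rhoc they were Rhbdf2, an inactive rhomboid protein (r 0.99), Pmp22, a myelin protein (r 0.96), and Sorcs2, a sorting receptor (r 0.96). Being the highest of 7921 genes over 8 points, such values are high by selection.

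Regulators and effectors of the 3 GTPases were read from 5 lists, in which 0 genes passed the adjusted threshold in either direction in edgeR, and 2 were at an unadjusted p under 0.05 (against 2.38% of all genes). The 4 dissociation inhibitors and chaperones were led by Arhgdia, the most widely expressed inhibitor (580.6 ± 46.7 TPM in control, 577.9 ± 65.1 in RhoA het; log2 fold change -0.09), and Arhgdib, the inhibitor of blood cells (19.8 ± 12.0 and 30.7 ± 18.7 TPM). Arhgdig, the remaining inhibitor, had a log2 fold change of 0.22. Of 20 exchange factors 19 were tested, 17 of them with a log2 fold change above 0 and 2 below, with a median of 0.13; none was at an unadjusted p under 0.05. Over all genes 49.9% were above 0 and the median was -0.00071. With the replicate block over the pairs, 12 exchange factors were above 0 and 7 below, with a median of 0.09, so the uneven split was smaller in that fit. By mean TPM over all 8 libraries, Arhgef2, a GEF held on microtubules, was the most abundant (63.6 ± 27.7 and 66.5 ± 12.5 TPM). Arhgef1, which acts downstream of G12/13-coupled receptors, followed by that mean (28.6 ± 7.79 and 32.4 ± 5.62 TPM). The smallest p were those of Arhgef11, another GEF of that kind (log2 fold change 0.40, SE 0.20; edgeR unadjusted p 0.0737), Arhgef5 (0.30, p 0.0973 in edgeR) and Mcf2l (1.59, p 0.126 in edgeR). Mcf2l was at 1.43 TPM in RhoA het replicate 6, high in endothelial markers, and at most 0.53 TPM elsewhere, and without that library its log2 fold change was 0.43. The part of endothelial RNA was not tested.

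Of 20 GAPs all were tested, 14 had a log2 fold change above 0 and 6 below, and the median was 0.17. At an unadjusted p under 0.05, 2 were higher (against 1.68% of all genes) and 0 lower. Arhgap26, or GRAF1, was at 4.21 ± 1.15 TPM in control and 6.41 ± 1.53 TPM in RhoA het (log2 fold change 0.53, SE 0.22; edgeR unadjusted p 0.0350, adjusted p 1.00). Its lowest RhoA het library, at 5.42 TPM, lay below the highest control library, at 5.61 TPM. Arap3 had a log2 fold change of 2.27 (SE 0.95; edgeR unadjusted p 0.0391, adjusted p 1.00), with 5.08 TPM in RhoA het replicate 6, the library high in endothelial markers, and at most 1.10 TPM elsewhere. Without that library the log2 fold change was 0.86 for Arap3 (edgeR unadjusted p 0.278) and 0.55 for Arhgap26 (edgeR unadjusted p 0.0509). The part of endothelial RNA in these values was not tested. Arhgap6 followed (0.30, p 0.140 in edgeR). The most abundant GAPs were Arhgap42, or GRAF3 (56.7 ± 17.4 and 70.6 ± 19.6 TPM), and Stard13 (47.8 ± 8.10 and 49.8 ± 4.93 TPM).

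Of 16 effectors all were tested, 10 were above 0 and 6 below, with a median of 0.03 and 0 at an unadjusted p under 0.05. Rock2 and Diaph1, a contractility kinase and a formin, were the most abundant (33.8 ± 6.75 and 36.7 ± 8.41 TPM for Rock2, 18.3 ± 3.08 and 19.6 ± 1.86 TPM for Diaph1). The smallest p belonged to Diaph2, another formin (log2 fold change 0.24, p 0.128 in edgeR), Pkn3 (1.18, p 0.182 in edgeR) and Rock1 (0.15, SE 0.12, p 0.236 in edgeR). Pkn3 was at 7.42 TPM in RhoA het replicate 6 and at most 3.08 TPM elsewhere, and without that library its log2 fold change was 0.028. Of the 11 genes of prenylation and turnover, 3 were above 0 and 8 below (median -0.04), again with 0 at an unadjusted p under 0.05. Tnfaip1, an adaptor of the ligase that degrades RhoA (72.7 ± 15.7 and 75.8 ± 10.8 TPM), and Fnta, the alpha subunit shared by the prenyltransferases (62.3 ± 8.68 and 63.3 ± 16.9 TPM), were the most abundant. Kctd13, another such adaptor, had a log2 fold change of -0.22, and the prenyltransferase subunits Pggt1b and Fntb had 0.19 and -0.17.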

How the data were processed

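Trizol-isolated RNA was made into libraries by template switching, per the labels' protocols. Per the file headers, the authors counted fragments with featureCounts 1.6.4 over exons of GENCODE mouse release 34 (mm39), paired-end, with no strand, multi-mapping or overlap option. The submitters' processing notes also name cutadapt, STAR and DESeq2. The deposited TPM values equal deposited counts divided by summed exon length and scaled per library (largest relative difference 2e-14). Symbols came from a table of Ensembl gene names by identifier (51884 of 57180 genes matched).

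Counts were filtered with filterByExpr (15660 genes kept), scaled by TMM and tested with edgeR 4.0.16 (quasi-likelihood F test, R 4.3.3) over 8 libraries, with Benjamini-Hochberg adjustment over all genes and a threshold of 0.05. The code was checked on simulated counts. Log2 CPM used a prior count of 2. Sums and shares were given no test. Ratios and correlations had two-sided exact permutation tests (70 assignments for ratios). Alternatives covered DESeq2 1.42.0, limma 3.58.1, other scalings and filters, log2(TPM + 1) and log2(TPM + 0.1), the replicate block, each library left out, and gene length.

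Replicate numbers 5, 7 and 8 occur in both groups. Same-numbered deviations from the group means correlated at 0.544, 0.231 and 0.488. Correlations between differently numbered libraries were not computed, so whether the numbers pair the libraries is not shown. The numbers were used as pairs in the replicate block and the differences within numbers, not in the main fits. The labels do not say what they stand for. The counting command in the header also names a control library 6 and a RhoA het library 2, not analysed here.

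Genes named are the members, from each list the 3 of smallest p and the 2 of highest TPM, the 3 most like each member, and genes overlapping a member. Outside this rule, the stem cell markers are named, and Fos, Jun, Egr1 and Atf3 are examples of their list. Gpx1, Usp4, Mov10, Acta1, Atp2a1 and Racgap1 were chosen after their values were seen. Fits of the lists without RhoA het replicate 6 and sign counts with the block were added after seeing the data. A sixth list is not reported here. Members and lists were chosen with earlier results of these data known. Transcripts of the 3 members came from GENCODE M21 and promoters from RefSeq (GRCm38.p6), matched by symbol (3 of 3). Both are on GRCm38, and their coordinates were not mixed with those of mm39.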

Additional observations from a re-analysis of the deposited data

How the results depend on the processing

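Of 118 alternative values, 103 kept their direction and their side of the threshold or stayed within the spread. Rhoa was lower in RhoA het under all 18 alternatives, with log2 fold changes from -0.37 (without control replicate 7) to -0.20 (limma on log2(TPM + 1)), the adjusted p passed under none, and the unadjusted p was over 0.05 under 15. Leaving out 1 library gave -0.37 to -0.21 for Rhoa, -0.020 to 0.21 for Rhob and -0.040 to 0.15 for Rhoc. The signs turned for Rhob without control replicate 7 (-0.020) and for Rhoc without control replicate 7 (-0.034) or RhoA het replicate 6 (-0.040). With the replicate block over the pairs 5, 7 and 8, edgeR called 2 genes, or 0.0127%, neither of them a member. Both, Acta1 and Atp2a1, are myofibre genes lower in RhoA het, named after their values were seen. The myofibre marker sum, lower in RhoA het in all 3 pairs (469 and 190, 203 and 65.9, 77.4 and 44.3 CPM), includes both genes. It is therefore no separate support, and the sum without them was not computed. In that fit the log2 fold changes were -0.24 for Rhoa, 0.29 for Rhob and 0.03 for Rhoc. The block changed no other call except that of the Rhoc to Rhoa ratio, whose change was 0.27 (exact permutation p 0.25, the smallest that 3 pairs allow), as it was over the same 6 libraries without the block (0.27, p 0.1, exact).

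With TMM scaling at the same exon lengths the summed level was different by 0.635%, in place of 7.00%. By CPM it was different by -6.96% and by longest transcript by -5.47%, where TMM scaling is used and Rhoa also has more weight. With 1 library left out the TPM sum was different by 0.982% to 13.0%, the highest without control replicate 5 and the lowest without control replicate 7. The difference in Rhoa share was -7.01 points by CPM, -6.66 by longest transcript and -5.20 to -3.97 with 1 library left out. Leaving out 1 library gave changes of 0.34 to 0.54 for the Rhob to Rhoa ratio and 0.27 to 0.43 for the Rhoc to Rhoa ratio; the first passed an exact permutation p of 0.05 without control replicate 5 (0.54), and the second did not when any control library was left out (0.32 to 0.38, p 0.0571), while it did when any RhoA het library was left out (p 0.0286). The Rhoc to Rhoa ratio did not overlap between the groups over 8 libraries, so it cannot overlap when 1 is left out. With so few libraries the exact p moves in coarse steps, and these p-values are not read as a weaker separation. The precision of the members is limited by the spread between libraries, not by counting.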

Other observations

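Of the genes within 100 kb of a member in mm39, 8 near Rhoa, 3 near Rhob and 7 near Rhoc could be tested. Near Rhoa the log2 fold changes ran from -0.14 to 0.41, with 0.11 for Gpx1, a glutathione peroxidase that begins 969 bases after Rhoa, and -0.09 for Usp4, a deubiquitinase and the next tested gene on that side. None of the tested neighbours passed the adjusted threshold in edgeR, and 1 had an unadjusted p under 0.05 (against 2.38% of all genes). Its CPM was higher in RhoA het without overlap, as for 1.02% of all genes, and it was chosen here after its value was seen. It is Mov10, an RNA helicase, which ends 377 bases from the end of Rhoc on the opposite strand, so that both genes are transcribed towards each other. Mov10 was at 1.48, 1.39, 1.54 and 1.36 CPM in control replicates 2, 5, 7 and 8 and at 3.62, 2.80, 4.08 and 3.44 CPM in RhoA het replicates 5, 6, 7 and 8, that is 28 to 41 and 59 to 91 fragments (log2 fold change 1.27, adjusted p 1.00 in edgeR). Rhoc CPM in the same libraries did not follow this order, being lowest in replicate 7 of both groups, where Mov10 was highest. The counts do not use strand, so transcripts of Rhoc that run past its end and transcripts of Mov10 cannot be told apart between the genes.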
